A study of Mus musculus with 6 samples.

Results

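Igf2bp1, Igf2bp2 and Igf2bp3 encode the mouse insulin-like growth factor 2 mRNA-binding proteins, and their own transcripts were followed through an RNA immunoprecipitation from testis. The family was taken by gene symbol, older synonyms included. It is represented by 3 probes, 1 for each of the 3 genes (M200003190 for Igf2bp1, M400001576 for Igf2bp2 and M200003619 for Igf2bp3), of 23473 probes and 16390 named genes on the array. Probes named Imp3 and Zbp1 were left out, since RefSeq gives each of those symbols to another gene. All 3 probes had a value on every array. Membership rests on symbols alone, but the family was selected on earlier results of these arrays, the intensities of all 3 groups included, so its levels and differences are given as descriptions with standard errors. Counts of members past a threshold stand beside the share of all probes. Nothing is read from these counts or from a member's place among all probes, since the selection bears on both.

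The proteins of this family carry RNA recognition motifs followed by KH domains, with which they bind messenger RNAs and influence their localisation, stability and translation. They are also known as readers of N6-methyladenosine (m6A), a modified base of mRNA. Igf2bp1 and Igf2bp3 are best known from embryonic tissues and tumours, and Igf2bp2 is found more widely in adult tissues. The arrays measured their transcripts, not the proteins.

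All samples were testis of C57/BL6 mice, for which the labels state no age and no genetic change. The MVH precipitate is RNA recovered from a testis cell lysate with an antibody against MVH, the germ cell RNA helicase also called DDX4. The IgG precipitate was recovered in the same way with normal rabbit IgG, and the third group, labelled WCE, is total RNA with no antibody. Each group holds 2 arrays, numbered 1 and 2. The lysates came from 2 testes according to the labels' protocol, and nothing ties the numbered arrays to separate animals, so the spread and the p-values below may be technical.

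The values are probe intensities centred on each array's median and scaled back to a median of 30, called scaled intensity here. They are relative to the other RNAs on the same array, and how much RNA was recovered is unknown. In such bulk samples, fewer cells of a type and less RNA per cell cannot be told apart. The arrays listed 22090 to 22965 probes each. The 2 arrays of a group correlated at 0.978 to 0.988 over probes, and IgG precipitate 2 stood apart in its deposited scale, with a median of 20.8 against 30.0 on the other 5. Markers of spermatogonia, spermatocytes, spermatids, Sertoli cells and Leydig cells, which define a testis, were listed in all 3 groups.

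Igf2bp3 and Igf2bp1 transcripts stood higher in the MVH precipitate than in either control, and Igf2bp2 was dim in all 3 groups, whose values overlapped. Relative to the IgG precipitate, Igf2bp3 was 4.68-fold and Igf2bp1 3.17-fold higher with MVH. Relative to total RNA they were 2.35-fold and 1.65-fold higher. In the IgG precipitate both lay at about the same distance below total RNA, at 0.502 and 0.521 of its level.

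The scaled intensity of Igf2bp3 was 359 and 545 on the MVH arrays, 100 and 89.1 on the IgG arrays and 194 and 182 on the total RNA arrays. Both MVH arrays were above all 4 others, and both IgG arrays were below all others. The lower MVH array was 3.58 times the higher IgG array and 1.85 times the higher total RNA array. After scaling, the widest gap within a group was between the 2 MVH arrays, which differed 1.52-fold. As deposited, the IgG arrays read 100.1 and 61.8, a wider gap in fold than that of the MVH arrays at 358.7 and 544.6. On every array the probe was above the array median, and 68.6% to 87.3% of listed probes were dimmer.

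The log2 difference of Igf2bp3 was 2.23 ± 0.30 for the MVH over the IgG precipitate (SE, n = 2 per group). Of the 21574 probes tested in that comparison, 81 had a larger positive difference. Set against total RNA, the MVH precipitate differed by 1.23 ± 0.30 and the IgG precipitate by -1.0 ± 0.3. Taking arrays of the same number, MVH minus IgG was 1.84 for the arrays numbered 1 and 2.61 for those numbered 2. Without MVH precipitate 1 the difference from IgG was 2.53, and without MVH precipitate 2 it was 1.93.

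Igf2bp1, the member known for binding beta-actin mRNA and the coding region of Myc mRNA, was dimmer. It read 62.6 and 85.5 on the MVH arrays, 23.4 and 22.8 on the IgG arrays and 39.6 and 49.6 on the total RNA arrays. As deposited, before scaling, IgG precipitate 2 read 15.8. The order of the groups was that of Igf2bp3, with MVH on top, total RNA between and IgG lowest, and no 2 groups overlapped. The gap between MVH and total RNA was the narrowest, the lower MVH array being 1.26 times the higher total RNA array. The MVH arrays differed from each other 1.37-fold, so that this gap was smaller than the spread between them.

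The log2 difference of Igf2bp1 was 1.66 ± 0.29 for the MVH over the IgG precipitate (SE, n = 2 per group), and 328 of the 21574 probes had a larger positive one. Against total RNA, the MVH precipitate differed by 0.72 ± 0.29 and the IgG precipitate by -0.94 ± 0.29. In the IgG precipitates the probe was below the array median, whereas it was above it in the other groups. Of the listed probes, 44.4% and 45.3% were dimmer there, against 63.8% and 68.6% with MVH and 55.7% and 59.5% in total RNA.

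Igf2bp2 was dim on all arrays. It read 6.5 and 5.5 on the MVH arrays, 6.4 and 4.9 on the IgG arrays and 6.2 and 5.5 on the total RNA arrays, and the 3 groups overlapped. As deposited, before scaling, IgG precipitate 2 read 3.4. Only 12% to 18.7% of listed probes were dimmer, and the lowest values listed on an array lay between 1.3 and 2. The log2 differences were 0.09 ± 0.28 for MVH over IgG, 0.03 ± 0.28 for MVH over total RNA and -0.06 ± 0.28 for IgG over total RNA (SE, n = 2 per group). The 95% interval of the first ran from -0.54 to 0.73, so that the flat profile does not show that the transcript was equally recovered. The sign of all 3 small differences turned under some settings.

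**Figure D1:**
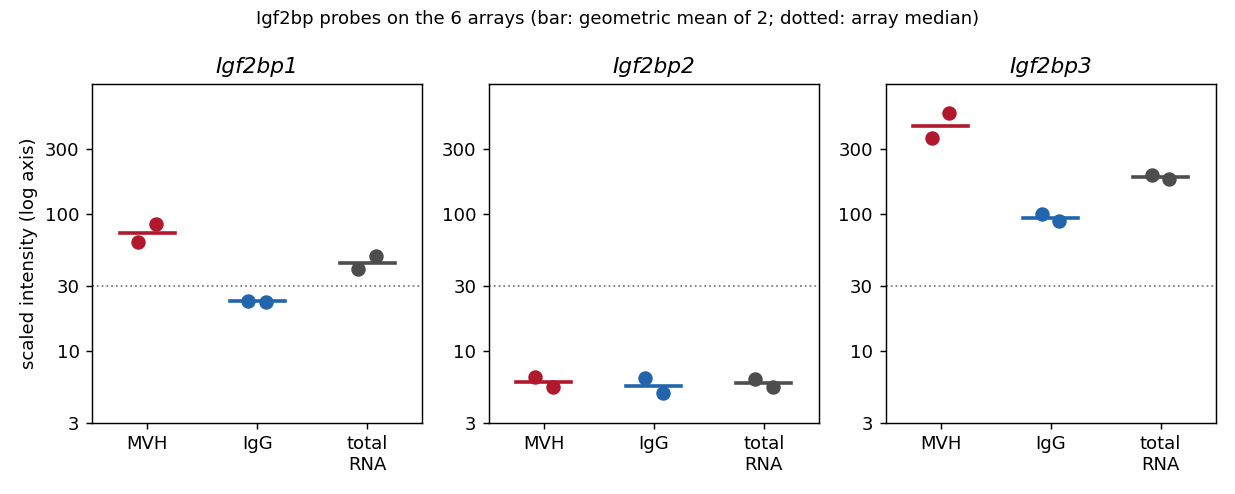
Scaled intensity (log axis) of the 3 Igf2bp probes on each of the 6 arrays, with 1 point per array, a bar at the geometric mean of each group's 2 arrays and a dotted line at the array median of 30. Igf2bp1 and Igf2bp3 are highest in the MVH precipitates and lowest in the IgG precipitates with no overlap between groups, and Igf2bp2 lies between 4.9 and 6.5 throughout.

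The full order in which both MVH arrays lay above both total RNA arrays, and these above both IgG arrays, was found for 2 of the 3 Igf2bp probes. It held for 1223 of 21241 probes listed on all arrays, or 5.76%. Taken by comparison, the groups did not overlap for the same 2 members. All probes did so in the same direction in 29.9% of cases for MVH above IgG, in 18.7% for MVH above total RNA and in 29.6% for IgG below total RNA. Since these comparisons share arrays, the 3 differences of a member are not independent of one another.

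In the limma fit across all probes, 2 of the 3 Igf2bp probes, Igf2bp1 and Igf2bp3, were past the threshold of an adjusted p of 0.05 for MVH above IgG, where 3.82% of all probes were. The count was 0 of 3 for MVH above total RNA, where limma called 0.00459% of all probes. At an unadjusted p under 0.05 it was 2 of 3 there, beside 4.53% of all probes. It was also 0 of 3 for IgG below total RNA, where limma called 0.0% of all probes. At an unadjusted p under 0.05 it was 2 of 3 there, beside 8.86% of all probes. The family was selected on the intensities of all 3 groups, so these counts, adjusted or not, test nothing about its members. When only the 4 arrays compared were fitted, limma called 0 of all probes for MVH against IgG, so both counted members were lost with them. Both also dropped below the threshold without MVH precipitate 2 and without either total RNA array, and Igf2bp1 without MVH precipitate 1. Without either IgG array both stayed past it. All fits without 1 array leave 1 array in a group, and the count over all probes fell in each. Why the members were lost in some of these fits was not tested.

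**Figure D2:**
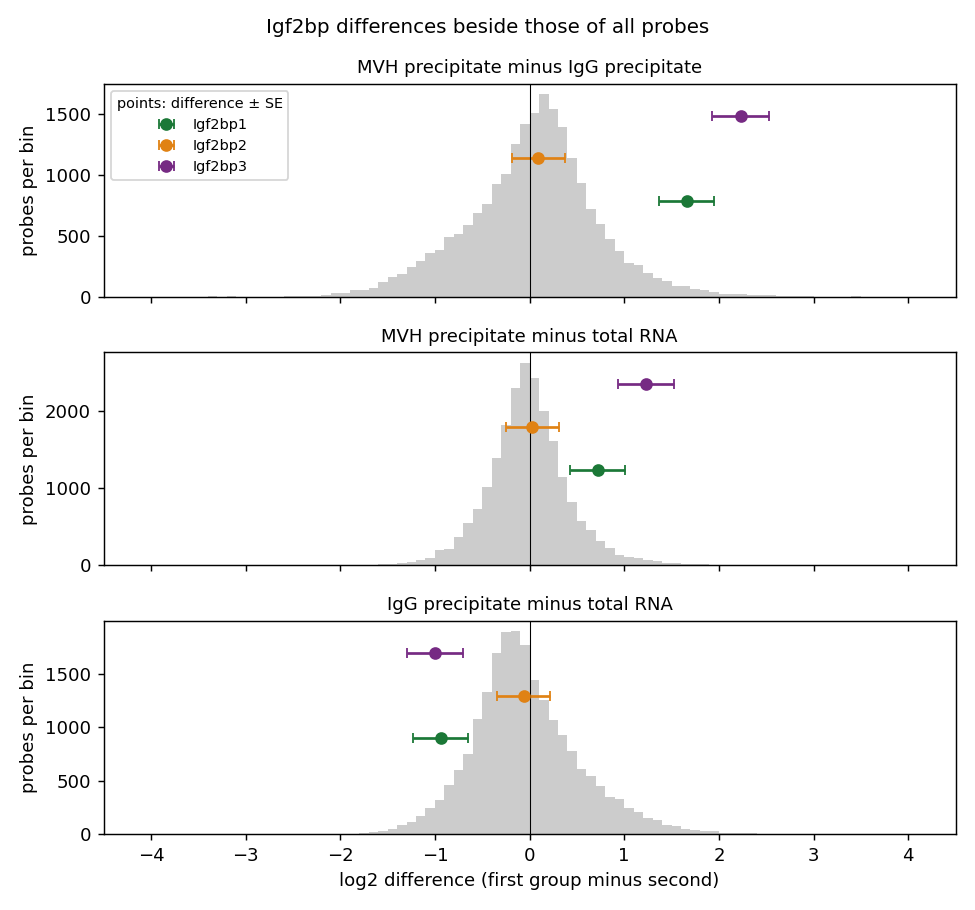
Log2 differences of the 3 Igf2bp probes (points, with the SE as bars, set at arbitrary heights) beside the distribution of all probes tested (grey, probes per bin of 0.1) in the 3 comparisons. Igf2bp3 (2.23) and Igf2bp1 (1.66) lie in the right tail for MVH minus IgG and in the left tail for IgG minus total RNA, and Igf2bp2 lies near 0 in each. The family was selected with these values known.

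Cell type markers also differed between the groups. For MVH against IgG, limma called 4.16% of named genes higher and 4.24% lower. Of 6 Leydig cell markers 4 were called lower, with a median log2 difference of -1.93 and all 6 below 0, and their summed scaled intensity was 494 to 512 in the MVH precipitates, 1890 to 3000 in the IgG precipitates and 662 to 1130 in total RNA. Of 6 peritubular and vascular markers tested 2 were called lower, with a median of -0.78, 2 above 0 and 4 below. Their sum over 8 markers was 365 to 554 with MVH, 1470 to 3170 with IgG and 422 to 519 in total RNA. Acta2, the smooth muscle actin gene, made up 93.0% of it over all arrays together. Without Acta2 the sum was 52.4 to 70.2 with MVH, 85.7 to 129 with IgG and 51.7 to 55.6 in total RNA. Of 8 spermatogonial markers tested 2 were called lower, with a median of -0.68, 3 above 0 and 5 below. Their sum over 9 markers was 3580 to 3730 with MVH, 7510 to 10800 with IgG and 4490 to 4880 in total RNA. Nanos3 and Uchl1 made up 77.5% of it over all arrays together. The 10 spermatocyte markers had no common direction, with 2 called higher and 1 lower, 5 above 0 and 5 below, and a median of 0.17. Their sum was 27700 to 30000 with MVH, 13300 to 16400 with IgG and 27400 to 32700 in total RNA. Over all arrays together, 83.9% of this sum was Mael and 96.3% was Mael and Syce1. Without Mael the sum was 4490 to 6990 with MVH, 2570 to 2650 with IgG and 3100 to 3910 in total RNA. Of 9 Sertoli cell markers 0 were called, with 6 of 9 above 0 and 3 below, and a median of 0.04. Their sum was 4150 on both MVH arrays, 6400 to 7100 with IgG and 5370 to 5780 in total RNA. Clu and Inha made up 97.9% of it over all arrays together. Of 10 spermatid markers 1 was called higher and 0 lower, with a median of 0.36, 8 above 0 and 2 below. Their sums overlapped, at 299000 to 392000 with MVH, 263000 to 359000 with IgG and 329000 to 361000 in total RNA. Tnp1 and Prm2 made up 45.4% of the sum over all arrays together. Of the 6 macrophage and blood markers 0 were called, with a median of 0.20, 5 above 0 and 1 below. Their sums were 148 to 168 with MVH, 141 to 165 with IgG and 149 to 154 in total RNA. No marker on the array was blank on both arrays of a group. The part of these shifts in the Igf2bp differences was not tested.

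Probes with the most similar profile were sought among 14795 probes with a descriptive gene name listed on all 6 arrays, by the root mean square distance of log2 values after each probe was centred on its own mean. The measure compares shape over 6 arrays and says nothing of shared function. The nearest to Igf2bp1 were Brca2 (distance 0.072), a gene of homologous recombination, the fatty acid-binding protein gene Fabp12 (0.078), the heparan sulfate enzyme gene Ndst3 (0.085), the clathrin adaptor gene Ap2a2 (0.090) and the nuclear receptor gene Nr2c1 (0.099). Brca2, for instance, read 98.2 and 133 on the MVH arrays, 40.4 and 34.9 on the IgG arrays and 62.4 and 86.0 on the total RNA arrays. The nearest to Igf2bp3 were farther off. They were the autophagy receptor gene Optn (0.107), the sphingomyelinase-associated factor gene Nsmaf (0.134), Tmem202 (0.172), Ubxn10 (0.173) and Zfp558 (0.178). Optn read 165 and 198 on the MVH arrays, 42.8 and 35.6 on the IgG arrays and 84.8 and 74.6 on the total RNA arrays. Igf2bp1 and Igf2bp3 were at a distance of 0.286 from each other. By that measure 65 other named probes were nearer to Igf2bp3 than Igf2bp1 was, and 276 were nearer to Igf2bp1 than Igf2bp3 was. The nearest to Igf2bp2 were probes just as flat, namely Olfr1342 (0.042), Nfatc4 (0.043), Abi3 (0.044), Naaa (0.047) and Fap (0.047).

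**Figure D3:**
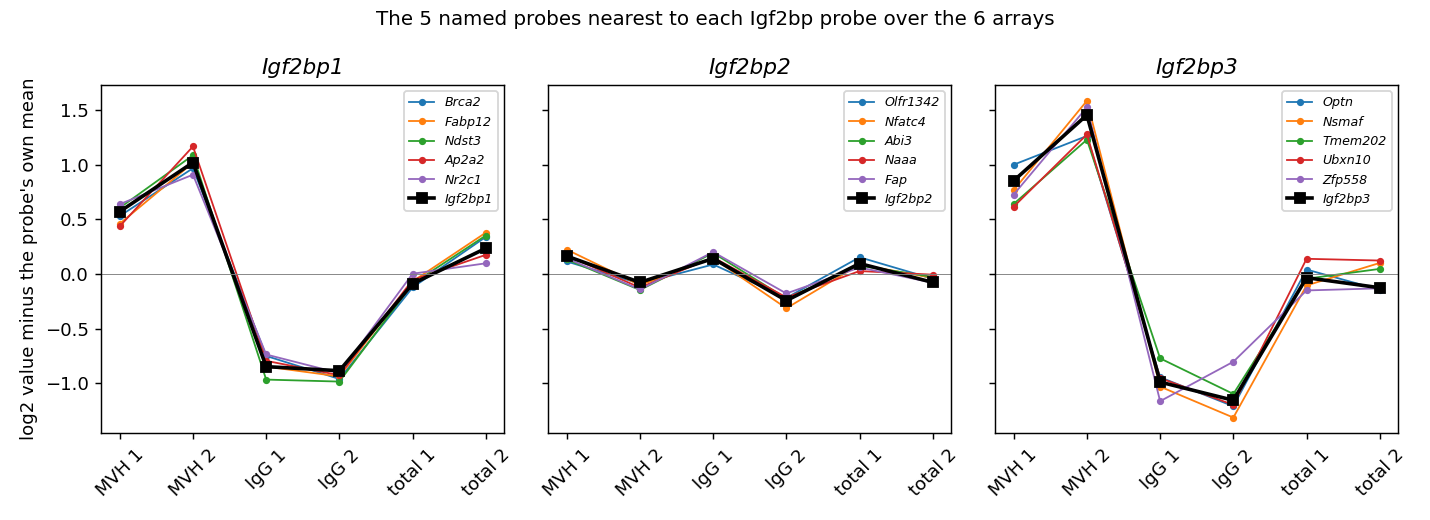
Log2 value minus the probe's own mean on each of the 6 arrays, for each Igf2bp probe (black squares) and the 5 named probes nearest to it (colours). Profiles near Igf2bp1 and Igf2bp3 fall lowest on the 2 IgG arrays, and those near Igf2bp2 stay flat.

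Transcripts of genes linked to the Igf2bp proteins passed the threshold in both directions, at a share near that of all named genes. Over 6 lists with 121 genes, 107 were tested for MVH against IgG, and limma called 5 higher and 3 lower at an adjusted p of 0.05. This is 7.48%, beside 8.4% of 15315 named genes with 1 probe each. The lists were chosen with earlier results of these data known, so the adjusted p-values of their genes are given as descriptions. The median log2 difference was -0.04 in the lists and 0.08 over all named genes. Against total RNA, limma called 0 of 107 for the MVH precipitate and 0 of 106 for the IgG precipitate. The background was 0.0% and 0.0131% of named genes. At an unadjusted p under 0.05 the lists had 7 higher and 4 lower for MVH against total RNA, or 10.3% beside 9.13% of named genes. They had 10 higher and 8 lower for IgG against total RNA, or 17.0% beside 18.7%. The 8 calls against IgG became 0 with only the 4 arrays compared, where limma called 0 of all probes. They were also lost without either MVH array and without either total RNA array, whereas some calls remained without either IgG array. All fits without 1 array leave 1 array in a group, and the count over all probes fell in each. Why calls were lost in some of these fits was not tested. The 8 calls became 16 without the dimmest 25% of probes, 13 with an offset before log2 and 14 with the replicate block.

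Of the transcripts of 21 proteins reported in Igf2bp ribonucleoprotein particles, limma called 2 higher with MVH than with IgG and 0 lower. Of all named genes it called 4.16% higher and 4.24% lower. The list had 12 differences above 0 and 9 below, with a median of 0.03. Ybx1, a Y-box protein that packages mRNA, read 5750 and 4500 on the MVH arrays, 1170 and 392 on the IgG arrays and 3200 and 2620 on the total RNA arrays (log2 2.91 for MVH over IgG, limma adjusted p = 0.0174). Pabpc1, the cytoplasmic poly(A)-binding protein, read 17800 and 15000 on the MVH arrays, 6150 and 6750 on the IgG arrays and 10200 and 8830 on the total RNA arrays (log2 1.34, limma adjusted p = 0.0266). The call of Pabpc1 was lost without IgG precipitate 1 (log2 1.28). Both genes had the group order of Igf2bp1 and Igf2bp3, with no overlap, as did 5.76% of all probes listed on every array. They were called for MVH above IgG, which already gives part of this order. Elavl1, which binds AU-rich elements, did not pass, at 37.9 and 44.6 on the MVH arrays, 69.6 and 98.2 on the IgG arrays and 59.5 and 75.8 on the total RNA arrays (log2 -1.01, limma adjusted p = 0.074). It passed with the dimmest 25% of probes left out, with an offset before log2 and with the replicate block.

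Of 19 transcripts reported as bound by these proteins, mostly outside the testis, limma called 1 higher and 2 lower with MVH than with IgG. The list had 9 differences above 0 and 10 below, with a median of -0.01. Ccnd3, a D-type cyclin, read 350 and 465 on the MVH arrays, 178 and 109 on the IgG arrays and 350 and 465 on the total RNA arrays (log2 1.53 for MVH over IgG, limma adjusted p = 0.0319), with values that match after rounding under MVH and in total RNA, and lower ones under IgG. This call was lost without IgG precipitate 2 (log2 1.18). Lamb2, a laminin chain of basement membranes, read 160 and 140 on the MVH arrays, 626 and 580 on the IgG arrays and 239 and 404 on the total RNA arrays (log2 -2.01, limma adjusted p = 0.0174). Igf2 and H19 were dim. Igf2, the growth factor mRNA of the family's name, read 16.8 and 15.9 on the MVH arrays, 17.6 and 29.9 on the IgG arrays and 19.8 and 24.5 on the total RNA arrays (log2 -0.49, limma adjusted p = 0.392). The noncoding RNA H19 read 2.6 and 4.1 on the MVH arrays, 7.9 and 5.91 on the IgG arrays and 5.1 and 6.0 on the total RNA arrays (log2 -1.07, limma adjusted p = 0.0766). Actb, the beta-actin mRNA bound by Igf2bp1 and named here after its values were seen, was bright, at 14700 and 11100 on the MVH arrays, 17300 and 16400 on the IgG arrays and 15500 and 19800 on the total RNA arrays (log2 -0.40, limma adjusted p = 0.436). A second, dimmer Actb probe did not pass either. Myc mRNA, also known to be bound by Igf2bp1 and likewise named after its values were seen, was dim. It read 6.1 and 9.8 on the MVH arrays, 5.3 and 2.74 on the IgG arrays and 8.1 and 8.5 on the total RNA arrays. Its log2 difference for MVH over IgG was 1.02 (limma adjusted p = 0.134).

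Among ligands, receptors, adaptors and binding proteins of insulin-like growth factor signalling, limma called 1 of 15 lower and 0 higher for MVH against IgG. Of the 15 tested, 7 were above 0 and 8 below, with a median of -0.03. The call was Igf1r, the receptor, which also stands among the reported targets. It read 26.1 and 18.1 on the MVH arrays, 94.7 and 50.0 on the IgG arrays and 30.1 and 25.9 on the total RNA arrays (log2 -1.66, limma adjusted p = 0.0319), and was thus highest in the IgG precipitates. The call was lost without IgG precipitate 1, where the log2 difference was -1.20, and with no centring (-1.40).

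The other groups held few calls. Of 17 genes of the m6A machinery 0 passed in either direction, with a median of -0.10. Mettl3, the catalytic subunit of the m6A writer, differed by 0.25 (limma adjusted p = 0.653). Ythdc2, a helicase and reader needed for meiosis in mice, was dim and differed by -0.06 (limma adjusted p = 0.939), a sign that turned under other settings. Of 14 genes of the Lin28 and let-7 axis 0 passed in either direction, with a median of -0.16. Lin28a and Lin28b, which block let-7 maturation, differed by 0.13 and -0.28 (limma adjusted p = 0.81 and 0.579), and the sign of Lin28a turned without MVH precipitate 1.

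Of 30 other genes of KH-domain proteins, limma called 2 higher and 1 lower with MVH than with IgG. The list had 15 differences above 0 and 15 below, with a median of -0.01. Akap1, an anchoring protein of the outer mitochondrial membrane, read 389 and 249 on the MVH arrays, 78.8 and 60.6 on the IgG arrays and 145 and 114 on the total RNA arrays (log2 2.17, limma adjusted p = 0.0172). Ascc1, a subunit of a transcription coactivator complex, read 194 and 144 on the MVH arrays, 73.8 and 37.2 on the IgG arrays and 136 and 109 on the total RNA arrays (log2 1.67, limma adjusted p = 0.0327). Both had the order of Igf2bp1 and Igf2bp3, part of which is given by their call for MVH above IgG. The call of Ascc1 was lost without IgG precipitate 2 (log2 1.18). Pcbp1, which binds C-rich RNA, had the opposite order, at 994 and 1100 on the MVH arrays, 2550 and 2860 on the IgG arrays and 1330 and 2040 on the total RNA arrays (log2 -1.37, limma adjusted p = 0.0319), and its call was lost without either IgG array (log2 -1.46 and -1.29) and with no centring (-1.11). Ddx4, the mRNA of the precipitated protein itself, read 1400 and 1560 on the MVH arrays, 1470 and 1390 on the IgG arrays and 860 and 1310 on the total RNA arrays (log2 0.05, limma adjusted p = 0.944).

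**Figure D4:**
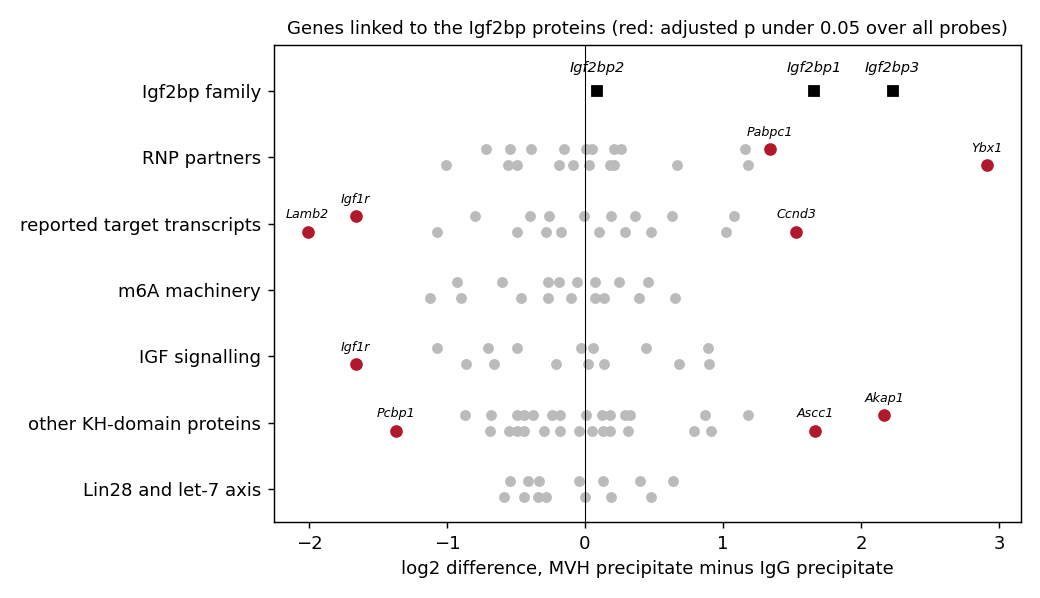
Log2 difference, MVH precipitate minus IgG precipitate, of the Igf2bp probes (black squares) and of the genes of 6 linked lists, 1 point per gene (height within a list is arbitrary). Red points passed limma's adjusted p of 0.05 over all probes, and they lie on both sides of 0.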

How the data were processed

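Per the labels' protocols, RNA was amplified, labelled with Cy5 and hybridised with 1 sample per array. The authors deposited linear intensity values. How the authors scanned, background-corrected and scaled them, and when they left a cell blank, is not given in the sources used here. A passage of the labels' protocol about other material was ignored. Of 23473 probes, 16631 had 1 gene symbol, 0 several and 6842 none in the platform annotation used here. Symbols were updated through RefSeq synonyms of assembly GRCm38.p6 (12622 current, 3947 updated, 62 not matched), used for names only.

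Log2 intensities were centred on each array's median. limma 3.58.1 in R 4.3.3 was fitted to all 6 arrays (lmFit, eBayes), and a contrast was used only where all 4 of its arrays had a value. P-values were adjusted by Benjamini-Hochberg over every probe tested in a contrast. Lists used 1 probe per gene, the one with the highest mean. The limma fit for MVH against IgG was also run on simulated independent arrays with the same spread for every probe. That setting is simpler than these data, and no result here rests on it. The members and lists were chosen with earlier results of these data known. The text names all Igf2bp probes, up to 4 called members of a list by size, genes fixed by name (Igf2, H19, Igf1r, Lin28a, Lin28b, Ybx1, Elavl1, Mettl3, Ythdc2 and Ddx4) and the 5 nearest profiles. The number of arrays limits the precision. The alternatives changed the centring (none, quantile normalization or the 75th percentile), dropped the dimmest 25% of probes, added 2.7 to each intensity, used the replicate number as a block, fitted only the 4 arrays compared, or left out each array in turn.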

Additional observations from a re-analysis of the deposited data

How the results depend on the processing

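Igf2bp1 and Igf2bp3 kept the direction of all 3 differences under all 13 alternatives run. For MVH over IgG, Igf2bp1 ranged from 1.44 to 1.93 and Igf2bp3 from 1.93 to 2.53. Only the changes of centring and the offset could have turned these signs. The groups of both genes did not overlap, so leaving out 1 array could not. The remaining alternatives leave the differences as they are by construction. With no centring, MVH over IgG was 1.93 for Igf2bp1, 0.36 for Igf2bp2 and 2.49 for Igf2bp3, and IgG over total RNA was -1.20, -0.32 and -1.26. Leaving out 1 array, Igf2bp3 ranged from 1.93 to 2.53 for MVH over IgG and from 0.93 to 1.53 for MVH over total RNA. Igf2bp2 was too dim to be kept without the dimmest 25% of probes. Its differences took both signs over the other 12 alternatives, from -0.10 to 0.36, -0.09 to 0.15 and -0.32 to 0.13. The counts over all probes moved more. For MVH against IgG 1719 were called, 823 with no centring (702 higher and 121 lower, against 824 and 895), 3116 without the dimmest probes, 2849 with an offset, 0 with only the 4 arrays compared, and 0 to 1327 leaving out 1 array. For MVH against total RNA the 3 calls became 19 with no centring, 8 with the 75th percentile, 123 without the dimmest probes, 95 with an offset, 6 with only the 4 arrays compared, and 0 to 10 leaving out 1 array. For IgG against total RNA the 2 calls became 5 with no centring, 141 with quantile normalization, 211 with the 75th percentile, 1183 without the dimmest probes, 962 with an offset, 1 with only the 4 arrays compared, and 0 to 58 leaving out 1 array. Of the linked lists, 8 genes were called for MVH against IgG, 16 without the dimmest probes, 13 with an offset, 0 with only the 4 arrays compared and 0 to 7 leaving out 1 array. For IgG against total RNA the 0 became 3 without the dimmest probes, 2 with an offset and 0 to 1 leaving out 1 array. The arrays share only a number. Their deviations correlated at 0.157 between MVH and IgG, 0.156 between MVH and total RNA and 0.101 between IgG and total RNA. With the replicate block the calls for IgG against total RNA became 150 and those of the linked lists for MVH against IgG 14. The Igf2bp differences kept their values, as they must where every group holds an array of each number. Small differences turned sign for Ddx4 (-0.03 without MVH precipitate 2), Lin28a (-0.05 to 0.31 leaving out 1 array) and Ythdc2 (0.20 with no centring, 0.04 with quantile normalization and -0.47 to 0.35 leaving out 1 array). The cause of these changes was not tested. Dim probes such as Igf2bp2, H19 and Ythdc2 are the least certain.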
